A study of Homo sapiens with 33 samples.

Results

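The subject is how the effect of the PRC2 inhibitor EED226 on gene expression changed between day 3 and day 6 of treatment in Karpas422 cells. It was measured for each of 19775 genes as a difference of differences, EED226 minus DMSO on day 6 less EED226 minus DMSO on day 3. This change of effect used 12 of the 33 arrays of the series, 3 in each of 4 groups: DMSO on day 3, EED226 on day 3, DMSO on day 6 and EED226 on day 6. Its SE and p-value took their spread from all 33 arrays. Karpas422 is a human diffuse large B cell lymphoma line that the series title calls EZH2 mutant, and all 4 groups share that background. EED226 was given at 5 µM, and DMSO is its solvent. The titles give times in hours, here written as days of 24 h; the other arrays were taken at 0 and 8 h and on days 1 and 2. Replicates are biological according to the series text, which names no shared batch. That text describes treatment with an inhibitor of EZH2, and a compound EI1 occurs in the protocol, but every treated title names EED226 and the groups follow the titles.

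PRC2 is the Polycomb complex that methylates histone H3 at lysine 27 and so keeps genes silent. EZH2 or EZH1 is its catalytic subunit, and EED binds the finished methyl mark, which stimulates the enzyme. EED226 occupies that pocket of EED. The mark is lost slowly, in large part as cells copy and divide their chromatin, so genes can respond over days. In germinal-centre B cells EZH2 holds back exit from the cell cycle and differentiation.

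Expression values are deposited RMA values on the log2 scale, so a difference of 1 is a doubling. Array medians lay between 4.06 and 4.18, and a value near or below them is dim, where sizes are uncertain. The number of arrays limits the precision. Day 6 DMSO replicate 3 stood apart from its group: its correlations with the other arrays of the group were 0.986 and 0.987, against 0.994 or more within each of the other 3 groups used here, and its 75th percentile was 6.10 against 6.52 to 6.74 on the other 11 arrays of the 4 groups. Day 3 DMSO replicate 3 also differed in a small set of genes: 23 genes lay more than 1 log2 unit above both other arrays of its group, 8 of them from the amino acid response list described further on, where replicates 1 and 2 had 0 such genes each. The 3' over 5' difference of the ACTB control probe sets, a sign of RNA integrity, was 3.05 to 3.16 in DMSO and 3.26 to 3.74 with EED226 on day 3, and 2.87 to 3.29 in DMSO and 3.50 to 4.14 with EED226 on day 6. It thus moved with the groups. With it as a covariate 2870 genes had a higher and 2543 a lower change of effect. The B cell markers MS4A1, CD79A, CD79B, PAX5 and CD22 were above the median of all values in each of the 4 groups.

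Between days 3 and 6 the effect of EED226 widened in both directions. In limma with Benjamini-Hochberg adjustment over all genes, the change of effect was called at an adjusted p under 0.05 for 4924 of 19775 genes, 24.9%. It was higher for 2802 (14.2%) and lower for 2122 (10.7%). A change of at least 1 log2 unit was found for 643 of the higher and 212 of the lower genes, and a change of at least 2 for 68 and 2. Which direction was more frequent was not settled. Without day 6 DMSO replicate 3 the counts were 2258 higher and 2251 lower, and after the quantile normalization was repeated they were 2302 and 2985. Of the 4924 calls, 4028 (81.8%) were also made without that array, 2222 higher and 1806 lower, and 0 turned their sign. In every one of the 12 fits that left out a single array of the 4 groups, 3477 genes kept the call, 2057 of them higher and 1420 lower. Over all genes the median change of effect was -0.0547. EED226 differed from DMSO for 4536 genes on day 3 (22.9%) and for 10081 on day 6 (51.0%).

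**Figure D1:**
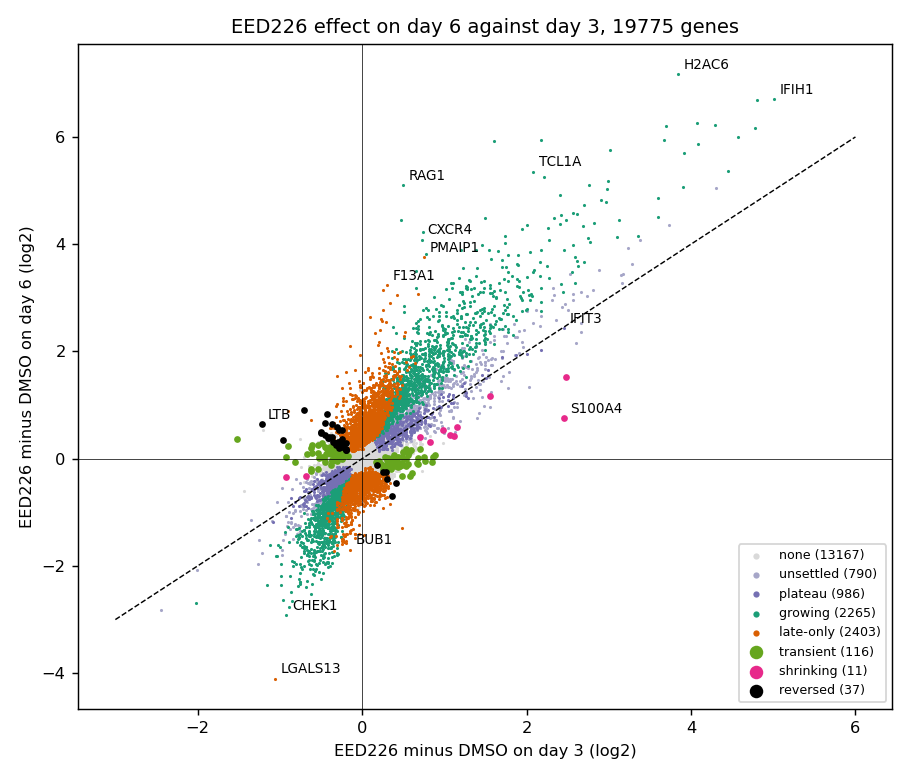
EED226 minus DMSO on day 3 (x axis, log2) against the same on day 6 (y axis, log2), 1 point for each of 19775 genes, coloured by class with the number of genes. The dashed line marks equal effects. RAG1, from 0.50 to 5.10, lies far above it, S100A4, from 2.46 to 0.75, below it and IFIT3, at 2.46 and 2.43, on it.

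The genes were sorted by their calls at both times and by the call on the change. Late-only genes passed the test on day 6 and not on day 3, with a called change in the same direction, and numbered 1427 higher and 976 lower. For 1167 and 869 of them the 95% interval of the day 3 effect lay within 0.5 log2 units of 0, so that at most a small effect was compatible with the day 3 arrays. Growing genes passed at both times and became larger, and numbered 1240 higher and 1025 lower. Plateau genes passed at both times with a change whose 95% interval lay within 0.5 log2 units of 0, and numbered 357 higher and 629 lower. Another 552 higher and 238 lower genes passed at both times with an interval too wide to call a plateau. Effects that had shrunk were few, 9 higher and 2 lower. Transient genes passed on day 3 and not on day 6, with a called change, 51 higher and 65 lower. Effects that turned their sign, with both signs called, numbered 31 from lower to higher and 6 from higher to lower. Without day 6 DMSO replicate 3, 967 of the 1427 higher and 651 of the 976 lower late-only genes stayed in that class, and 1076 of 1240 and 1014 of 1025 growing genes in theirs. The edge between late-only and growing is the day 3 test alone: RAG1 stood just inside the growing class with an adjusted p of 0.0368 on day 3, and SHCBP1, from -0.34 to -1.73, just outside it with 0.0756. Without day 3 DMSO replicate 3 the adjusted p of RAG1 was 0.0863, so that it would count as late-only.

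The arrays of days 1 and 2 were not used to form the classes. In the late-only class the median effect was 0.00354 on day 1, 0.0416 on day 2 and 0.0727 on day 3 among the higher genes, and then 0.669 on day 6. Their lower counterparts had medians of -0.0129, -0.0362, -0.0318 and -0.524. On day 2, 1.75% of the higher and 0.512% of the lower late-only genes were called in their later direction, where 6.76% and 2.68% of all genes were called higher and lower. Growing higher genes had medians of 0.136, 0.415, 0.645 and 1.53 on days 1, 2, 3 and 6, and 54.6% of them were called on day 2. Growing lower genes had medians of -0.0331, -0.177, -0.372 and -0.954, with 24.8% called on day 2. Plateau higher genes had climbed about as early, to 0.276 on day 2 and 0.426 on day 3, and stood at 0.497 on day 6. The classes are defined by the day 3 call, so small day 3 medians in the late-only class follow from the definition, and the shares of all genes on day 2 include genes called on day 3, which that class leaves out.

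**Figure D2:**
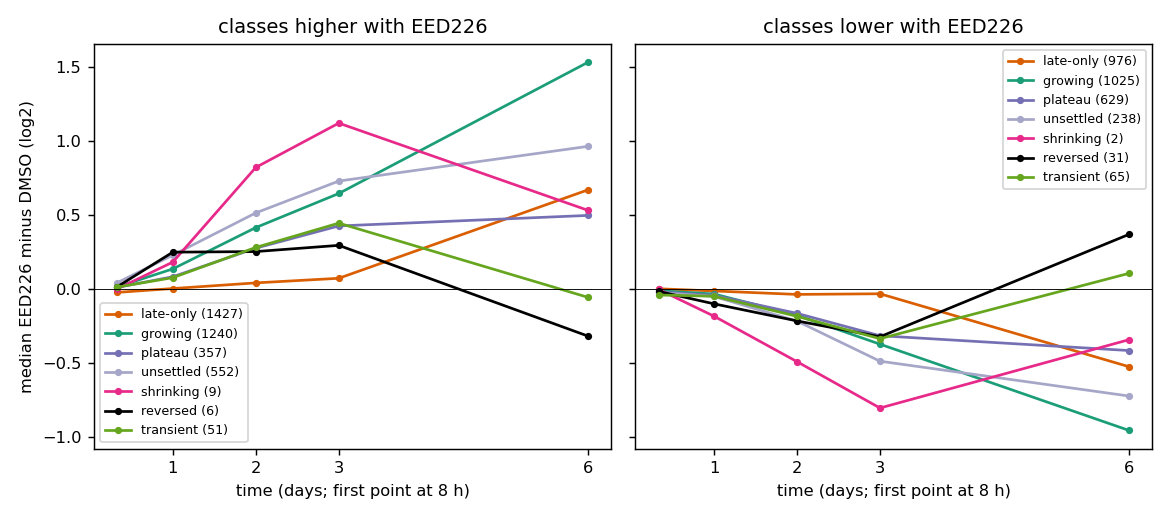
Median EED226 minus DMSO (y axis, log2) of each class at 8 h and on days 1, 2, 3 and 6 (x axis), for classes named by a higher (left) or lower (right) effect, which for reversed and transient genes is the effect on day 3. The number of genes of each class stands in the legend. The late-only lines stay near 0 up to day 3 and reach 0.669 and -0.524 on day 6, while the growing lines leave 0 by day 2.

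Most genes with a called change of effect moved further in the EED226 arrays than in the DMSO arrays. Between days 3 and 6, 6116 genes (30.9%) passed the test within the EED226 arrays, 3018 higher and 3098 lower, and 1 gene, LRRC15, passed within the DMSO arrays (0.00506%), while an unadjusted p under 0.05 was found for 7603 and 2480 genes. LRRC15, named after its values were seen, did not pass without day 6 DMSO replicate 3. Of the 4924 genes with a called change of effect, 4497 moved further with EED226 and 427 did not. The DMSO arrays moved by at least 0.5 log2 units for 109 of them.

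**Figure D3:**
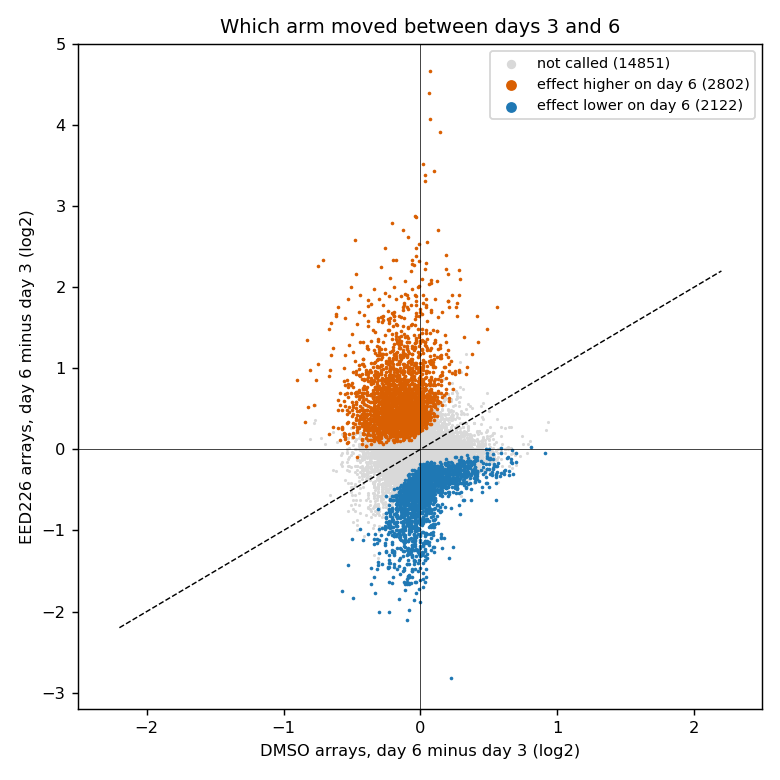
Change from day 3 to day 6 in the DMSO arrays (x axis, log2) and in the EED226 arrays (y axis, log2), 1 point for each gene. Orange marks 2802 genes whose EED226 effect became higher, blue 2122 whose effect became lower, and the dashed line marks equal movement of both arms. The coloured points spread mainly along the y axis.

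The largest late-only rises were in genes of varied function. PMAIP1 encodes NOXA, a BH3-only protein that promotes apoptosis by binding MCL1. It read 8.17, 8.13 and 10.23 in DMSO and 9.64, 9.64 and 9.50 with EED226 on day 3, and 8.37, 8.08 and 7.82 in DMSO and 12.09, 11.95 and 11.52 with EED226 on day 6. The groups overlapped on day 3, through DMSO replicate 3 alone, and were apart on day 6. Its change of effect was 3.01 ± 0.44 (SE, n = 3 arrays in each group, adjusted p = 7.21e-06). That SE rests on a spread pooled over all 33 arrays, while the SD of DMSO on day 3 alone was 1.2 for PMAIP1. Without day 3 DMSO replicate 3 its day 3 effect was 1.44 (adjusted p = 3.52e-07) and its change 2.32, so that it would count as growing. F13A1, the A subunit of coagulation factor XIII, read 2.93 to 3.35 and 3.27 to 3.77 in DMSO and EED226 on day 3, then 3.13 to 3.19 in DMSO and 6.70, 6.50 and 5.96 with EED226 on day 6. Its values overlapped on day 3 and lay more than 2 units apart on day 6, with a change of 2.93 ± 0.22. The chemokine gene CCL4 went from an effect of 0.68 to 3.08, the microtubule protein gene MAP2 from 0.42 to 3.05, the protocadherin gene PCDH19 from 0.34 to 2.91, the pseudogene TPTE2P6 from 0.25 to 3.15, the matricellular protein gene SPARCL1 from 0.26 to 2.78 and the organic cation transporter gene SLC22A4 from 0.10 to 2.64. Except for CCL4, these genes and F13A1 had means of 2.18 to 4.05 in DMSO at both times and with EED226 on day 3. Those means lay below the array medians, so an earlier small effect could be missed. Only EED226 on day 6 brought them past the level that the naming rule asks for. Without day 3 DMSO replicate 3 the day 3 effect of CCL4 was 1.07 (adjusted p = 0.00808), so that it too would count as growing. On day 2, PMAIP1 and MAP2 had called effects of 0.98 (adjusted p = 0.0424) and 0.87 (adjusted p = 0.00209) and so were not free of an earlier effect. The changes of the 6 genes CCL4, MAP2, PCDH19, TPTE2P6, SPARCL1 and SLC22A4 lay between 2.39 and 2.90 and were called in each of the 12 fits without a single array. JUN, the AP-1 transcription factor, and H1-2, a linker histone gene, were chosen after their values were seen and had effects of 0.29 and 0.23 on day 3 and of 2.55 and 2.60 on day 6.

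Among the late-only falls, LGALS13, a galectin known from placenta, had the largest change. Its DMSO values were 9.83, 10.06 and 10.92 on day 3 and 10.18, 10.27 and 11.01 on day 6, and its EED226 values 8.71, 9.07 and 9.84, then 5.78, 6.18 and 7.19. Replicate 3 was the highest array in each group, and the groups overlapped on day 3 and not on day 6. Its day 3 effect of -1.06 had an adjusted p of 0.0902, so it is a late-only gene only in the sense of the test, and its change was -3.04 ± 0.63. TNNI1, a troponin I gene of slow muscle, went from 0.48 to -1.29 and TEAD4, the DNA-binding partner of YAP, from 0.02 to -1.42. On day 3 TNNI1 read 9.22, 9.24 and 8.52 in DMSO and 9.69, 9.66 and 9.07 with EED226, and replicate 3 was its lowest array in each group. In every day 3 replicate the EED226 array lay above the DMSO array of the same number for TNNI1, and below it for LGALS13. The model does not pair the numbers, so TNNI1 too is late-only only in the sense of the test. The other genes the rule named here belong to mitosis or are known to rise in dividing cells: the kinetochore genes BUB1, NUF2 and CENPF, SHCBP1, and LMNB1, a component of the nuclear lamina. BUB1, a checkpoint kinase, read 10.15, 10.08 and 9.87 in DMSO and 9.95, 9.91 and 9.78 with EED226 on day 3. On day 6 it read 9.97, 9.93 and 9.89 in DMSO and 8.08, 8.04 and 8.56 with EED226. Its effect went from -0.15 to -1.70, a change of -1.55 ± 0.14 (adjusted p = 9.09e-09).

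The largest growing rises were larger still, and RAG1 and CXCR4 among them have known roles in B cells. RAG1, a subunit of the recombinase that assembles antigen receptor genes, had the largest change of the genes named. It read 2.15, 2.40 and 2.24 in DMSO and 2.52, 3.05 and 2.72 with EED226 on day 3, then 2.31, 2.26 and 2.44 in DMSO and 7.91, 7.57 and 6.82 with EED226 on day 6. It was dim in 3 groups and well above the array medians in the last, with an effect of 0.50 on day 3 and 5.10 on day 6 and a change of 4.60 ± 0.24 (adjusted p = 6.37e-13). RAG1 has 1 other probe set, with a change of -0.00 (adjusted p = 0.99), so the rise rests on one of its probe sets. RAG2, its partner subunit, was a late-only gene, from 0.10 to 1.52, and stayed near the array medians (3.45 to 4.23 with EED226 on day 6). CXCR4, the chemokine receptor that places B cells in the dark zone of germinal centres, went from 0.73 to 4.08 and TNFRSF21, a death receptor, from 2.17 to 5.95. GCA, a calcium-binding protein of granules, went from 0.47 to 4.46 with a change of 3.99 ± 0.15, ZNF595, a zinc finger gene with 1 other probe set of opposite sign, from 1.60 to 5.93, and TMEM71 from 0.74 to 4.23. GCA and TMEM71 were dim in all groups but EED226 on day 6, with means of 2.40 to 3.28. In DMSO, ZNF595, TNFRSF21 and CXCR4 were dim as well, with means of 2.78 to 3.85. The sizes of these effects are therefore uncertain.

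**Figure D4:**
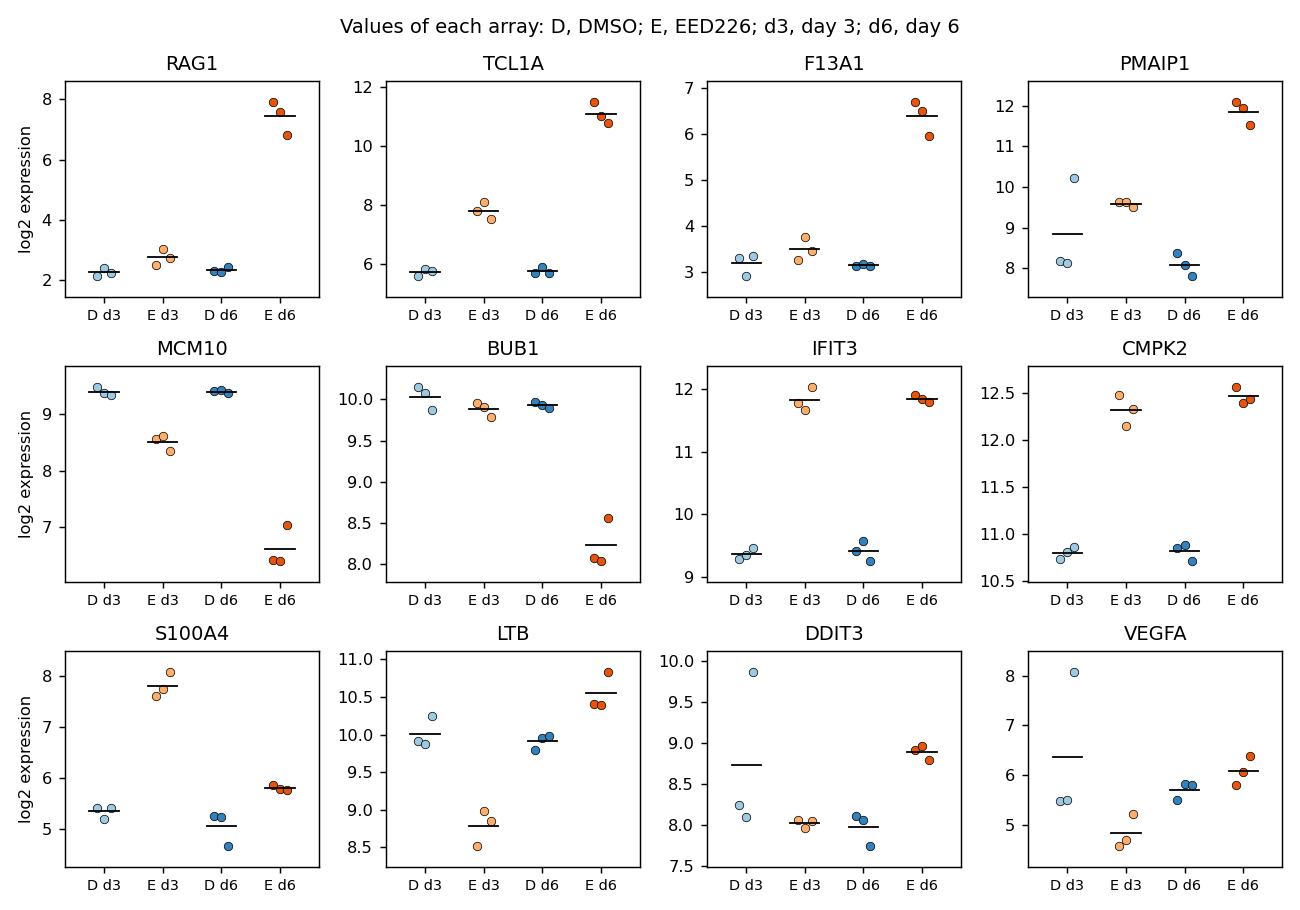
Deposited log2 expression (y axis) of 12 genes on each array of the 4 groups (x axis: D, DMSO; E, EED226; d3 and d6, day 3 and day 6); bars are means of 3 arrays, and each panel has its own scale. RAG1 and F13A1 stand far above the other groups with EED226 on day 6, the treated arrays of IFIT3 and CMPK2 overlap between the times, S100A4 is highest on day 3, and in PMAIP1, DDIT3 and VEGFA 1 DMSO array on day 3 lies above the other 2.

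Genes of cell division fell together. In these bulk samples, fewer dividing cells and less RNA in each cell cannot be told apart. Of 27 measured genes of origin licensing and firing, which load and start the replicative helicase, 23 had a lower change of effect and 0 a higher one, where 10.7% of all genes were lower. Of 36 genes of DNA synthesis and repair the counts were 33 and 0, and of 48 genes of G2 and M phase 47 and 0. Median effects on days 3 and 6 were -0.485 and -1.66 for licensing, -0.459 and -1.50 for DNA synthesis and -0.291 and -1.47 for G2 and M phase. All genes had medians of -0.0224 and -0.106.

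The shares of these lists that were called lower differed on days 2 and 3. On day 2, 10 of 27 licensing genes, 6 of 36 DNA synthesis genes and 1 of 48 in the G2 and M phase list were called lower, against 2.68% of all genes. On day 3 the counts were 25, 32 and 24, against 11.2% of all genes, and on day 6 every measured member of the 3 lists was called lower, against 27.3%. As a result 23 licensing genes were growing and 0 late-only, while the G2 and M phase list held 24 growing and 23 late-only genes. Among members called on day 6, the median share of the day 6 effect already present on day 3 was 32.9% for licensing, 29.9% for DNA synthesis and 19.2% for G2 and M phase. It was 33.6% over all genes called on day 6. The difference between the lists was not tested.

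MCM10, a replication initiator, read 9.48, 9.38 and 9.34 in DMSO and 8.57, 8.61 and 8.35 with EED226 on day 3. It read 9.41, 9.42 and 9.37 in DMSO and 6.43, 6.41 and 7.04 with EED226 on day 6, so the groups were apart at both times and further apart on day 6. Its change was -1.88 ± 0.15. The checkpoint kinase CHEK1 had a change of -2.00 ± 0.18, the origin recognition subunit ORC1 of -1.81 ± 0.19, the helicase subunit MCM6 of -1.59 ± 0.12, the licensing inhibitor GMNN of -1.39 ± 0.11 and TIPIN, which guards replication forks, of -1.21 ± 0.09. With MCM10, CHEK1 and ORC1, the rule for growing falls also named DNAI1. Its change was -1.90 ± 0.22, with 1 other probe set of opposite sign. In the G2 and M phase list survivin (BIRC5) went from -0.30 to -1.80 and the spindle protein gene DLGAP5 from -0.29 to -1.77. Of 21 cyclins, CDKs and E2F factors 12 were lower and 1 higher in the change of effect, against 10.7% and 14.2% of all genes. Among the lower ones, cyclin A2 (CCNA2) went from -0.45 to -1.96 and the ubiquitin ligase subunit SKP2 from -0.34 to -1.45. E2F1 and the phosphatase gene CDC25A, chosen after their values were seen, had changes of -1.30 ± 0.16 and -1.21 ± 0.17. EED226 replicate 3 was the least affected array on day 6 for MCM10, CHEK1, ORC1 and BUB1.

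Promoters of these genes carry known cell-cycle elements, and some are shown because the licensing and the G2 and M phase lists differ in them. Genes expressed in G2 and M phase often have a cell cycle homology region (CHR, searched as TTTGAA) beside CCAAT boxes, and S phase genes often have E2F sites (searched as TTTCGCGC and TTTGGCGC). All motifs were searched on both strands of 300 bases around the start, from 250 bases before to 50 after it, in RefSeq promoters of assembly GRCh38.p14, taking the first promoter of each symbol. The table had a promoter for 15384 of the 19775 genes. A CHR was present in 27 of 39 promoters of the G2 and M phase list (69.2%) and 1 of 23 licensing promoters (4.35%), and in 15.4% of all 27305 promoters. An E2F site was present in 8 of 23 licensing promoters (34.8%), 5 of 32 DNA synthesis promoters (15.6%) and 3 of 39 G2 and M phase promoters (7.69%), and in 1.18% of all. CCAAT boxes were present in 74.4% of G2 and M phase and 60.9% of licensing promoters, and in 35.7% of all. Within the G2 and M phase list a CHR was present in 12 of 19 promoters of late-only genes and 14 of 19 of growing ones. Below are 150 bases upstream of the start, with matches in capitals: a CHR appears as TTTGAA or TTCAAA and a CCAAT box as CCAAT or ATTGG, some of which overlap. HMMR and KIF23 were late-only and DLGAP5 and CDC20 growing, and HMMR, KIF23 and CDC20 were chosen after their values were seen. The positions are HMMR, chr5:163460482-163460631, plus strand; KIF23, chr15:69414199-69414348, plus strand; DLGAP5, chr14:55191586-55191735, minus strand; and CDC20, chr1:43358831-43358980, plus strand.
HMMR: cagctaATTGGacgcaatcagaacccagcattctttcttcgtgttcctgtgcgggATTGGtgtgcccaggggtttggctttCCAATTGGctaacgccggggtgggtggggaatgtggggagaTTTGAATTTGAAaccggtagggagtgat
KIF23: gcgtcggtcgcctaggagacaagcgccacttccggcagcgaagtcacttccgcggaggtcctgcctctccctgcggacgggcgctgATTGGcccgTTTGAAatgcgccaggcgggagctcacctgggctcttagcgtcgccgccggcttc
DLGAP5: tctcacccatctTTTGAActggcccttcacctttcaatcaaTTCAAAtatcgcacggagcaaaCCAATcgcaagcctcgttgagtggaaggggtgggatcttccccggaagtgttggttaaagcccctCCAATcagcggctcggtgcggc
CDC20: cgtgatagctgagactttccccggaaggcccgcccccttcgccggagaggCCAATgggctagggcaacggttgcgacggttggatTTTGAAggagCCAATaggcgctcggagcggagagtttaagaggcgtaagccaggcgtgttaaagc

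HMMR, a hyaluronan and spindle protein gene, went from an effect of -0.08 to -1.41, and KIF23, a kinesin of cytokinesis, from -0.19 to -1.53. CDC20, the activator of the anaphase-promoting complex, went from -0.39 to -2.00. Both of the late-only genes and both of the growing ones have a CHR in the stretch shown. The helicase subunit genes MCM6 and MCM7 show the other kind of promoter, with capitals for E2F sites and CCAAT boxes. In MCM6 one E2F site of each spelling overlap on opposite strands. The stretches are MCM6, chr2:135876444-135876593, minus strand; and MCM7, chr7:100101398-100101547, minus strand, whose gene was chosen after its values were seen.
MCM6: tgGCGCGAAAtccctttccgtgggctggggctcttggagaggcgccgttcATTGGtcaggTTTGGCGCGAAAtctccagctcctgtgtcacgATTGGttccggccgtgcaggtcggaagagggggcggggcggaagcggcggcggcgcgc
MCM7: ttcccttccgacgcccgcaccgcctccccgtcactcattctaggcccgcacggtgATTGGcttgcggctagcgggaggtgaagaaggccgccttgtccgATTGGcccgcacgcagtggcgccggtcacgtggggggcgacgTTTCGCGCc

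MCM6 and MCM7 were already lower on day 3, by effects of -0.52 and -0.65, and reached -2.11 and -1.97 on day 6. A motif match describes these letters and is not evidence of a factor's binding.

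Interferon-stimulated genes, the antiviral program that cells switch on through STAT and IRF factors, behaved differently: most of their rise was complete on day 3. Of 41 measured genes, 38 were called higher on day 2 and 40 on both days 3 and 6, with medians of 2.16 and 2.47. The change of effect was called higher for 13, against 14.2% of all genes, and lower for 0. Among them 11 were plateau genes, 16 had an interval too wide to settle and 13 were growing. The median share of the day 6 effect present on day 3 was 86.6%. IFIT3, which binds viral RNA complexes, read 9.29, 9.35 and 9.47 in DMSO and 11.78, 11.67 and 12.03 with EED226 on day 3. On day 6 it read 9.42, 9.58 and 9.26 in DMSO and 11.91, 11.84 and 11.79 with EED226. The treated arrays overlapped between the times, and the change was -0.03 ± 0.20. IFIT3, RIGI, OAS1 and PARP12 were chosen after their values were seen. The change of effect of the RNA sensor gene RIGI was -0.05 ± 0.13, that of the RNase L activator OAS1 -0.15 ± 0.16, that of the ADP-ribosyltransferase PARP12 0.17 ± 0.12, and, named by rule, those of the nucleotide kinase CMPK2 and the RNA-dependent kinase EIF2AK2 0.12 ± 0.16 and 0.10 ± 0.17. Both other probe sets of RIGI had the opposite sign of change, 1 of them called.

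Other members of the list went on rising. IFIH1, a sensor of double-stranded RNA, read 8.73, 8.27 and 8.82 with EED226 on day 3 and 10.42, 10.17 and 10.32 on day 6, against 3.27 to 3.86 and 3.26 to 3.82 in DMSO. It had a change of 1.70 ± 0.24. The DNA sensor AIM2 had a change of 1.94 ± 0.30 and IFI27, chosen after its values were seen, of 1.42 ± 0.40. The antiviral gene RSAD2, also chosen so, had a change of 0.92 ± 0.34 that was called in 4 of the 12 fits without a single array. An interferon-stimulated response element (ISRE, searched as GAAA, any 2 bases and GAAA again) was present in 24 of 34 promoters of the list (70.6%) and 3.65% of all promoters. The stretches below, with the match in capitals, show it in plateau genes (IFIT3, PARP12) and in a growing gene (IFIH1). They are IFIT3, chr10:89327847-89327996, plus strand; PARP12, chr7:140062952-140063101, minus strand; and IFIH1, chr2:162318685-162318834, minus strand.
IFIT3: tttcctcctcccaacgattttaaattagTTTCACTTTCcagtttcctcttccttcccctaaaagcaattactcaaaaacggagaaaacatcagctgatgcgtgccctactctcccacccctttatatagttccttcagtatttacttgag
PARP12: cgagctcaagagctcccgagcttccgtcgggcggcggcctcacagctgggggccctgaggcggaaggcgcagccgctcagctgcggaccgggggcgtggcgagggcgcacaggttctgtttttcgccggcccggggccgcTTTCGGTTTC
IFIH1: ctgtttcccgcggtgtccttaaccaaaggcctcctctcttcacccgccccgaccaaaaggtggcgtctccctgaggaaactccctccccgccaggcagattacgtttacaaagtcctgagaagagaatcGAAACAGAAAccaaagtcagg

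Genes of interferon signalling itself, the receptors, kinases and factors upstream, were measured by 16 genes. Of these 10 had a higher change of effect and 0 a lower one, against 14.2% and 10.7% of all genes. Among members called on day 6 the median share present on day 3 was 50.7%, against 33.6% over all genes; the difference from the interferon-stimulated genes was not tested. The median effect of the list was 0.366 on day 3 and 1.22 on day 6. IFNAR1, a chain of the type I interferon receptor, read 6.96, 6.98 and 6.92 with EED226 and 6.97 to 7.10 in DMSO on day 3, then 7.92, 7.86 and 7.88 with EED226 and 6.49 to 6.84 in DMSO on day 6. The groups overlapped on day 3 and not on day 6, with a change of 1.24 ± 0.14. The transcription factor IRF1 went from 1.40 to 2.73. Of 17 genes of MHC class I presentation every one was called higher at both times, and 7 had a higher change of effect, 4 without day 6 DMSO replicate 3. They included HLA-E, from 1.34 to 2.26, and the peptide editor TAPBPL, from 0.92 to 2.29, while the immunoproteasome subunit PSMB10 and the peptide trimming enzyme ERAP1, chosen after their values were seen, had changes of 0.02 ± 0.12 and 0.03 ± 0.12. Of 16 genes of MHC class II presentation 9 were higher and 0 lower in the change of effect, 4 of them late-only. HLA-DMB, which loads peptides, went from -0.21 to 0.60, and the protease CTSS from 0.53 to 1.31.

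Genes that mark B cell stages split. Of 27 germinal-centre B cell genes 13 had a higher and 1 a lower change of effect, against 14.2% and 10.7% of all genes, and 9 and 2 without day 6 DMSO replicate 3. Without day 6 EED226 replicate 1 the higher count was 8. TCL1A, a coactivator of AKT, read 5.60, 5.83 and 5.75 in DMSO and 7.80, 8.10 and 7.52 with EED226 on day 3, then 5.70, 5.89 and 5.68 in DMSO and 11.51, 11.02 and 10.80 with EED226 on day 6. The groups were apart at both times, with a change of 3.27 ± 0.33. BACH2, a repressor that delays plasma cell formation, went from 2.61 to 4.57. Chosen after their values were seen, the receptor component CD79B went from 0.15 to 1.08, the inhibitory receptor CD22 from 0.10 to 0.83 and CD72 from 0.66 to 3.50, while the germinal-centre serpin SERPINA9 went from -0.11 to -0.91. Of 18 plasma cell genes 2 were higher and 4 lower in the change of effect, against 14.2% and 10.7% of all genes. The higher count ranged from 1 to 5 over the alternatives, so which direction was more frequent was not settled. Syndecan-1 (SDC1), the plasma cell surface marker, went from -0.58 to -1.71 and CD27 from 0.03 to -0.59, whereas the immunoglobulin joining chain JCHAIN, chosen after its values were seen, went from 2.97 to 4.78. Of 15 early B cell and recombination genes, RAG1 and RAG2 among them, 5 were higher and 0 lower, against the same shares of all genes. Without day 6 DMSO replicate 3 they numbered 4 higher and 2 lower.

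Of 22 NF-kB subunits and targets 13 were higher and 1 lower in the change of effect, against 14.2% and 10.7% of all genes. Late-only rises made up 7 of them, and the median effect went from 0.0666 to 0.627. NFKBIA, the inhibitor that NF-kB itself induces, read 8.55, 8.36 and 8.49 in DMSO and 8.26, 8.35 and 8.10 with EED226 on day 3, and 8.47, 8.29 and 8.19 in DMSO and 9.35, 9.42 and 9.42 with EED226 on day 6. The treated arrays lay below every DMSO array on day 3 and above every one on day 6; the day 3 effect of -0.23 had an adjusted p of 0.0879, and the change was 1.31 ± 0.14. BCL2A1, a survival gene, went from 1.31 to 3.32. Chosen after their values were seen, NFKBIZ went from 1.40 to 3.55, the subunit gene REL from 0.22 to 1.36, the inhibitor TNFAIP3 from 0.35 to 1.38 and CD83 from 1.04 to 2.23. The cytokine gene TNF, chosen likewise, was the exception, from -2.02 to -2.70, a change of -0.68 that was called in 7 of the 12 fits without a single array. Its neighbour LTA, also chosen so, had effects of -2.45 and -2.82, with a change of -0.37 ± 0.25 that was not called (adjusted p = 0.301).

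Of 14 apoptosis regulators, genes of the BCL2 family and its partners, 4 were higher and 1 lower in the change of effect, against 14.2% and 10.7% of all genes. The higher count was 7 without day 6 EED226 replicate 3 and 2 with the mean of each gene's probe sets, the latter near the share of all genes. The lower count was 0 in 6 of the 12 fits without a single array. Whether rises were in excess here was therefore not settled. Besides PMAIP1, its binding partner MCL1 went from 0.49 to 1.06, a change that was 0.24 (adjusted p = 0.116) with the mean of its probe sets, and BIK, chosen after its values were seen, from 0.39 to 1.63, with a called day 3 effect of 0.62 (adjusted p = 0.00381) without day 3 DMSO replicate 3. Of 22 CDK inhibitors and quiescence genes 11 were higher and 2 lower in the change of effect (14.2% and 10.7% of all genes), all 11 of the higher ones growing, with medians of 0.388 on day 3 and 0.913 on day 6. BTG1, an antiproliferative gene often mutated in this lymphoma, read 9.84, 9.65 and 9.81 with EED226 on day 3 and 10.91, 10.91 and 10.73 on day 6, against 8.47 to 8.83 and 8.15 to 8.48 in DMSO. It was apart from DMSO at both times, and its change was 1.35 ± 0.14. PIK3IP1, an inhibitor of PI3 kinase, went from 0.65 to 2.12. The FOXO factor FOXO3 and its target SESN3, chosen after their values were seen, went from 0.80 to 2.10 and from 1.89 to 3.22. The CDK inhibitors CDKN1A and CDKN1B, chosen likewise, had changes of 0.85 ± 0.32 and 0.50 ± 0.22 that were not called (adjusted p = 0.055 and 0.103); CDKN1A passed in 4 of the 12 fits without a single array. Without day 3 DMSO replicate 3 the changes were 0.39 and 0.30, and the day 3 effect of CDKN1A was 0.47 (adjusted p = 0.0329) in place of 0.01.

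Several lists of biosynthesis and metabolism held more genes with a lower than with a higher change of effect, where all genes had 10.7% lower and 14.2% higher. Of 33 genes of ribosome biogenesis and the MYC network 20 were lower and 5 higher in the change of effect, among them the RNA methylase gene FBL, from -0.25 to -1.35. An E-box (CACGTG) was present in 12 of 27 promoters of the list (44.4%) and in 7.43% of all promoters. Of 23 cytosolic ribosomal protein genes 1, RPL3, was lower, with a change of -0.53 ± 0.08, and 0 were higher, and of 30 mitochondrial ribosomal protein genes 26 were lower and 0 higher. The cytosolic genes had means of 13.18 to 13.27 on the 12 arrays and the mitochondrial ones 9.17 to 10.06, and the difference between the lists was not tested. MRPS15 went from -0.29 to -1.09 and MRPL11 from -0.42 to -1.28. With trended and robust eBayes the count for the cytosolic genes was 5 lower. Of 27 respiratory chain subunits 15 were lower (9 with the mean of each gene's probe sets) and 0 higher, 10 of them late-only, with CYC1 from -0.25 to -0.92 and UQCRC1 from -0.15 to -0.90. Of 21 glycolysis genes 13 were lower and 0 higher, with enolase (ENO1) from -0.26 to -1.16 and GPI, which interconverts hexose phosphates, from -0.60 to -2.06. Of 10 fatty acid synthesis genes 7 and of 19 cholesterol synthesis genes 10 were lower, and 0 of either were higher.

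FASN, the fatty acid synthase, read 8.71, 8.41 and 8.38 in DMSO and 7.59, 7.71 and 7.86 with EED226 on day 3, then 8.65, 8.34 and 8.44 in DMSO and 5.97, 5.86 and 6.44 with EED226 on day 6. The groups were apart at both times, with a change of -1.60 ± 0.18. SCD, which desaturates fatty acids, was late-only, from -0.24 to -1.49. In the cholesterol list FDPS, which makes farnesyl diphosphate, went from -0.50 to -1.46 and TMEM97 from -0.43 to -1.58.

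**Figure D5:**
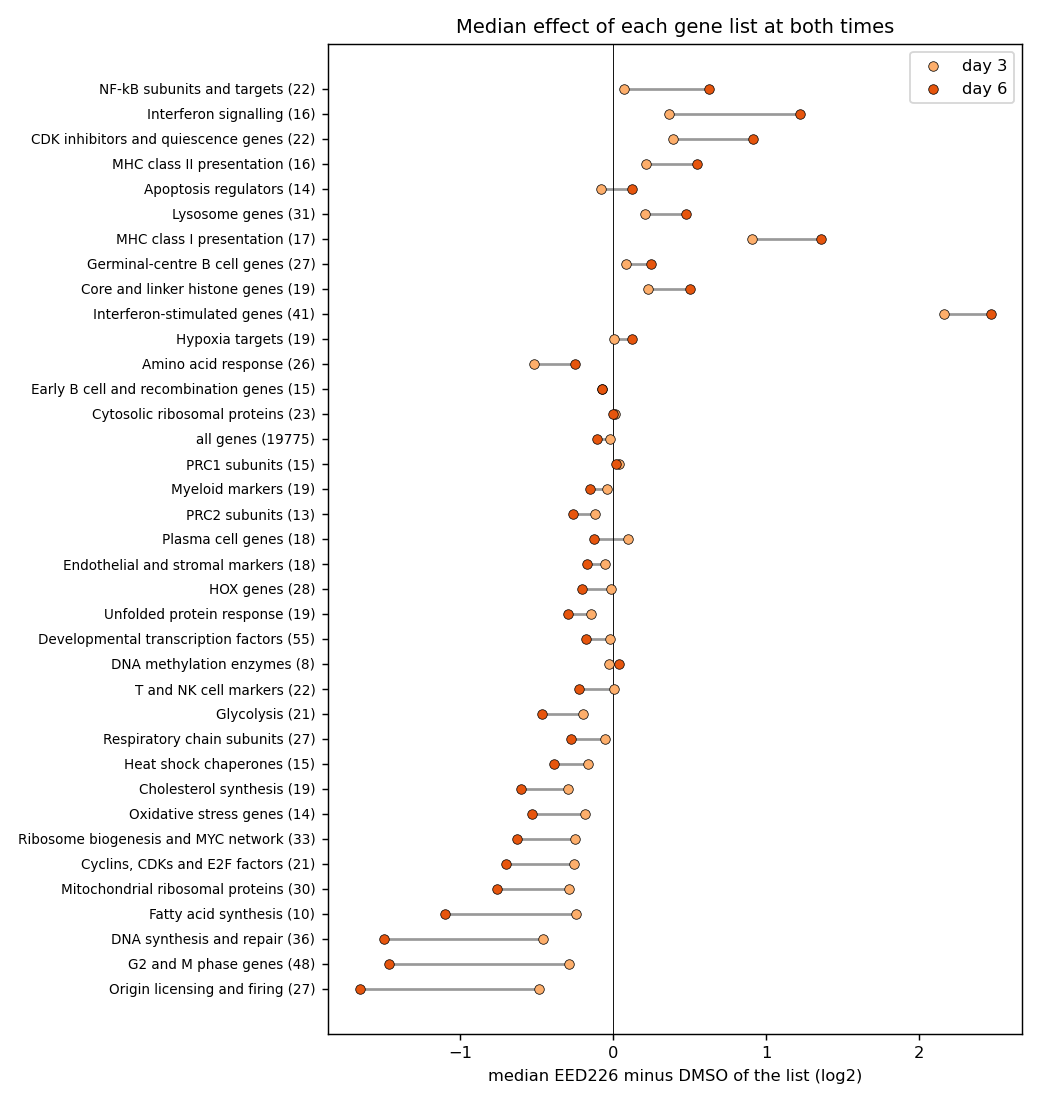
Median EED226 minus DMSO (x axis, log2) of each of the 36 gene lists and of all genes on day 3 (light) and day 6 (dark), ordered by the median change of effect, with the number of measured genes in brackets. Licensing, DNA synthesis and G2 and M phase genes have the longest leftward shifts, and interferon-stimulated genes are high at both times.

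Few effects had become smaller. S100A4, a calcium-binding protein linked to cell motility, read 5.42, 5.20 and 5.42 in DMSO and 7.61, 7.74 and 8.07 with EED226 on day 3, then 5.26, 5.23 and 4.67 in DMSO and 5.86, 5.78 and 5.76 with EED226 on day 6. The treated arrays were above DMSO at both times, by 2.46 on day 3 and 0.75 on day 6, with a change of -1.71 ± 0.25 (adjusted p = 8.92e-06), and its effect on day 2 was 2.02. FABP6, a bile acid carrier gene, went from 2.48 to 1.53 and the Wnt receptor gene FZD4 from 1.12 to 0.43. FZD4-DT, a divergent transcript beside FZD4, had a change of -0.56 that was called in 6 of the 12 fits without a single array (-0.36, adjusted p = 0.151, without day 6 DMSO replicate 3). From below, S1PR2, a receptor that confines germinal-centre B cells, went from -0.92 to -0.35 (a change of 0.37, adjusted p = 0.103, when quantile normalization was repeated), and ARHGAP45 from -0.68 to -0.33. The change of ARHGAP45 was called in 7 of those fits (0.27, adjusted p = 0.113, without that array).

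Reversals from lower to higher were led by LTB, the lymphotoxin beta gene. It read 9.91, 9.87 and 10.25 in DMSO and 8.52, 8.99 and 8.85 with EED226 on day 3, and 9.79, 9.96 and 9.98 in DMSO and 10.41, 10.40 and 10.83 with EED226 on day 6. The treated arrays lay below every DMSO array on day 3 and above every one on day 6. Its effect was -0.98 on day 2, -1.22 on day 3 and 0.64 on day 6, with a change of 1.86 ± 0.30 (adjusted p = 3.72e-05), and the sign was opposite in 1 other probe set of LTB. IL10RB-DT, a divergent transcript beside a cytokine receptor gene, went from -0.96 to 0.34. From higher to lower, ARG2, the mitochondrial arginase, went from 0.36 to -0.69, SPMIP6 from 0.41 to -0.46, and PREB, a factor of vesicle export from the endoplasmic reticulum, from 0.29 to -0.25. ARG2 and PREB had effects of 0.61 and 0.36 on day 2. Without day 3 DMSO replicate 3 the day 3 effect was 0.37 for ARG2 (adjusted p = 0.0831) and 0.22 for SPMIP6 (adjusted p = 0.35), so that neither counted as reversed, while PREB did. Transient rises included TNFRSF17, the BCMA receptor of plasma cells, from 0.85 to -0.06, the homeobox gene DLX2 from 0.61 to -0.27 and the microtubule protein gene MAP6 from 0.58 to -0.33, whose change was -0.35 (adjusted p = 0.0749) with the mean of its probe sets. The noncoding transcript PWAR6 was a transient fall, from -0.90 to 0.23.

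For several stress-responsive genes the day 3 effect rested in part on 1 DMSO array. DDIT3, which encodes the stress factor CHOP, read 8.24, 8.09 and 9.86 in DMSO and 8.06, 7.96 and 8.05 with EED226 on day 3, and 8.11, 8.06 and 7.74 in DMSO and 8.91, 8.96 and 8.79 with EED226 on day 6. DMSO replicate 3 was the high array on day 3, and the day 6 groups did not overlap. The effect of DDIT3 was -0.70 on day 3 and 0.91 on day 6, with a change of 1.62 ± 0.33. Without that array the day 3 effect was -0.14 (adjusted p = 0.385) and the change 1.05 ± 0.13, so the reversal was lost and the late rise was kept. VEGFA, an angiogenic factor, read 5.49, 5.51 and 8.07 in DMSO on day 3; its change of 1.89 ± 0.52 became 1.03 ± 0.24 without the array, and was 0.43 (adjusted p = 0.257) with the mean of its probe sets. SESN2 went from 1.78 to 0.99 in the same way and ATF5 from 0.96 to 0.41, which was no longer called (adjusted p = 0.144). The call of ATF5 was also lost in most other fits without a single array. Its change was 0.86 (adjusted p = 0.113) without day 6 DMSO replicate 3 and 0.95 (adjusted p = 0.0793) without day 3 EED226 replicate 1. With the mean of its probe sets it was 0.44 (adjusted p = 0.154). The mean of the 26 genes of the amino acid response, which cells induce through ATF4, was 8.18, 8.15 and 9.04 on the DMSO arrays on day 3 and 7.99 to 8.21 on the other 9 arrays. The list's median effect on day 3 was -0.516 with and -0.0950 without day 3 DMSO replicate 3. Its counts in the change of effect were 3 higher and 1 lower with that array, and 2 and 3 without. Over all genes the shares with that array were 14.2% higher and 10.7% lower. XBP1, a factor of the unfolded protein response and of plasma cells, chosen after its values were seen, read 7.69, 7.71 and 8.54 in DMSO on day 3 and had a change of 0.75 ± 0.19. Its change was 0.47 (adjusted p = 0.0068) and its day 3 effect -0.54 in place of -0.82 without that array, and the change was 0.55 (adjusted p = 0.0611) when quantile normalization was repeated.

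The genes of PRC2 also shifted. EED itself, the subunit that EED226 binds, was a plateau gene, with effects of -0.22 and -0.27 and a change of -0.05 ± 0.07, while its 1 other probe set was called in the opposite direction. EZH2 read 10.29, 10.22 and 10.36 in DMSO and 10.17, 10.01 and 10.07 with EED226 on day 3, then 10.28, 10.24 and 10.24 in DMSO and 9.45, 9.33 and 9.66 with EED226 on day 6. The treated arrays lay below every DMSO array at both times; the day 3 effect of -0.21 had an adjusted p of 0.0615, and the change was -0.57 ± 0.11 (adjusted p = 0.000319). EZH1, the other catalytic subunit, went from 0.20 to 0.85, a change of 0.65 ± 0.11, which was 0.21 (adjusted p = 0.186) with the mean of its probe sets. SUZ12 had a change of -0.30 ± 0.10 that was called in 6 of the 12 fits without a single array (-0.27, adjusted p = 0.0776, without day 6 DMSO replicate 3) and was 0.01 with the mean of its probe sets. The accessory subunit PHF19 went from -0.36 to -1.94. Chosen after their values were seen, PHF1, another accessory subunit, went from 0.13 to 0.85, JARID2, which helps recruit the complex, from 0.69 to 1.34, and EPOP from 0.26 to -0.25. In all, 3 of 13 PRC2 genes were higher and 5 lower in the change of effect, against 14.2% and 10.7% of all genes. Without day 3 DMSO replicate 3 the day 3 effect of EZH1 was 0.25 (adjusted p = 0.0446) and that of EPOP 0.25 (adjusted p = 0.0752), so that EZH1 would count as growing and EPOP not as reversed. Of 15 PRC1 subunits 5 were higher and 2 lower, with PHC3 from 0.16 to 1.06 and PCGF3 from 0.02 to 0.95. Of 8 DNA methylation enzymes 1 was higher, TET2, an oxidase of methylcytosine, from 0.84 to 1.92, and 3 were lower, among them UHRF1, which brings DNMT1 to replicated DNA, from -0.47 to -2.14.

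Few developmental genes, a classical group of PRC2 targets, had a called change of effect after day 3, where 14.2% of all genes were higher and 10.7% lower. On the 12 arrays the HOX list had means of 4.06 to 4.29 and the developmental factors 3.93 to 4.05, near the array medians. At such levels sizes are uncertain, so a missing call does not show that a dim member was unchanged. Of 28 HOX genes 1 was higher, HOXB3, from 1.53 to 2.71, and 1 lower, HOXD9, whose change of -0.63 was called in 3 of the 12 fits without a single array. The 1 other probe set of HOXB3 was called in the opposite direction, and the mean of both gave a change of 0.27 (adjusted p = 0.164). Of 55 developmental transcription factors 2 were higher and 1 lower, with MEIS1 from 1.94 to 2.96 and EOMES from 0.17 to -0.80. SOX9 was a plateau gene with effects of 1.70 and 1.90 and a change of 0.20 ± 0.13. ILDR2, also a plateau gene, had effects of 2.18 and 2.03, with a change of -0.15 that became a called change of -0.37 (adjusted p = 0.0407) when quantile normalization was repeated. Among plateau falls, the phosphatase gene PTPN6 had effects of -1.08 and -1.18.

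Markers of other cell types were followed on the same arrays. In the main fit their counts of called changes were small. They lay near or below the shares of all genes, 14.2% higher and 10.7% lower, except for the higher myeloid markers, which lay above. As no list was tested, none of these counts is read as a result about the markers. Of 19 myeloid markers 4 were higher and 0 lower in the change of effect, with MPEG1, a perforin-like protein, from 3.70 to 6.21 and CYBB, an oxidase subunit, from 0.68 to 2.41; both are also known from B cells. The defining markers CD14 and CSF1R had group means of 2.88 to 3.16 and 3.73 to 3.93, near or below the array medians, and LYZ means of 3.13, 4.46, 3.22 and 5.50 in DMSO and EED226 on day 3 and DMSO and EED226 on day 6. In the same order ITGAM, also a defining marker, had means of 4.21, 4.12, 4.23 and 3.73. The mean of the 19 markers was 3.72 to 3.80 on the DMSO arrays of both times, 3.99 to 4.05 with EED226 on day 3 and 4.23 to 4.35 on day 6. Of 22 T and NK cell markers 0 were higher and 2 lower, the signalling chain CD247 from -0.38 to -1.15 and CD5 from 0.01 to -0.58, which was called in 8 of the 12 fits without a single array. With the ACTB covariate 6 were lower. The defining markers CD2 and NKG7 had means of 2.67 to 3.00 in the 4 groups, and CD3E of 4.22 to 4.47. The mean of the 22 T and NK cell markers was 4.48 to 4.86 over all 12 arrays. CD3D, which defines T cells, was nonetheless high in every group, with means of 9.04, 8.64, 9.04 and 8.09. Of 18 endothelial and stromal markers 2 were higher and 0 lower, and their mean was 4.30 to 4.60 on the DMSO arrays, 4.56 to 4.64 with EED226 on day 3 and 4.61 to 4.76 on day 6. They were ACTA2 and PECAM1, the latter with a change of 0.80 that was -0.66 (adjusted p = 0.0051) with the probe set that was brightest in the untreated arrays. The endothelial marker CDH5 had means of 2.54 to 2.72, and DCN was high in every group, at 12.63 to 13.28. COL1A1 had means of 6.28, 6.01, 6.56 and 5.76 in the order given for LYZ, and COL1A2 of 3.37, 3.60, 3.74 and 3.45. On day 6 the effect was called higher for 4 and lower for 4 myeloid markers. The counts were 1 and 7 for T and NK cell and 4 and 5 for endothelial and stromal markers. Over all genes the shares were 23.7% and 27.3%. The part of other cells in the results was not tested.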

How the data were processed

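The 33 arrays are in 11 groups of 3, by sample title. TRIZOL extraction and labelling by a 3' IVT kit are given in the labels' protocols. Day 3 and day 6 are 72 and 144 h. The authors deposited log2 values per probe set. Per the submitters' processing notes they come from RMA, whose version is not given in the sources used here. The table held 54675 probe sets. Platform annotation gave 41091 of them 1 gene symbol, 1801 several and 11721 none; the last 2 kinds were left out. For each of 19775 genes the probe set with the highest mean over all arrays was used, a choice that can favour probe sets raised by EED226; 10523 genes had more than 1.

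Tests used limma 3.58.1 under R 4.3.3 (lmFit, eBayes, 11 group means, 22 residual degrees of freedom, two-sided, Benjamini-Hochberg over all genes, call at an adjusted p under 0.05). On simulated data for the change of effect (19775 genes, 200 changed) it recovered 28.4% of changes of 0.5, 85.1% of 1 and 100% of 2 log2 units, with 8 false calls, so a gene not called may still have changed. The simulated noise was independent between arrays and equally wide on all arrays of a gene. The real arrays were unequal, with a weight of 0.139 for day 6 DMSO replicate 3 and 2.761 for replicate 1. The 8 false calls therefore do not measure the error among the real calls. Values with ± are the SE from limma. Its spread is pooled over the replicates of all 11 groups, so it can be smaller than the spread within the groups compared. P-values measure this pooled spread between the deposited replicates.

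The rule for named genes takes, among genes above the median of all values in at least 1 group, with no called opposite probe set and 1 sign of change in the 12 fits without a single array, the largest changes of effect: 8 late-only genes in each direction, 6 growing higher and 4 growing lower, 4 shrinking, 3 reversed and 3 transient each way, 4 and 3 plateau genes by their day 6 effect. It adds, without those conditions, 2 genes of each of 36 lists by p, and EED, EZH2, EZH1 and SUZ12. The question, the lists and the rule were chosen with earlier results of these data known, and no list was tested. Of 165 genes looked at singly, 101 had other probe sets and 33 of these at least 1 of opposite sign. Sequences are RefSeq's, from GRCh38.p14. The alternatives changed the arrays used, the normalization, the probe set choice, the weights and the block.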

Additional observations from a re-analysis of the deposited data

Results flagged for a closer look

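The change between times was itself the test: the EED226 effect differed between days 3 and 6, higher for 2802 and lower for 2122 genes. In 31 genes it went from called lower to called higher and in 6 from called higher to called lower, with the difference called as well. Among the genes named, the differences between the times were -1.05 for ARG2, -0.88 for SPMIP6, -0.54 for PREB, -0.51 for EPOP, 1.86 for LTB, 1.62 for DDIT3 and 1.31 for IL10RB-DT. That of DDIT3 was 1.05 without day 3 DMSO replicate 3, and the day 3 effects of DDIT3, ARG2, SPMIP6 and EPOP were then no longer called.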

How the results depend on the processing

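Every count of the change of effect and of the effects at both times stayed within 1.5 times its value under the alternatives, except with only the 12 arrays of the 4 groups, a fit with fewer arrays and 8 residual degrees of freedom, where 1289 genes had a lower change and 1253 a lower effect on day 3. There the growing classes held 804 higher and 536 lower genes, plateau lower 267, shrinking higher 4, reversed 3 from higher and 8 from lower, and transient 23 higher and 17 lower. In that fit the germinal-centre list had 6 and the early B cell list 2 members with a higher change, and ribosome biogenesis had 12, respiratory chain 7 and glycolysis 7 with a lower one. The small classes moved most, and apart from the fit with fewer arrays the cause was not tested. Array weights gave 14 shrinking higher, 18 reversed from higher and 87 transient higher genes, and repeated quantile normalization 21, 24 and 78, with 0 shrinking lower. A replicate block on the numbers of the titles gave 3125 genes with a higher and 2496 with a lower change, 4 shrinking lower, and 13 and 50 reversed from higher and from lower. Deviations of same-numbered arrays from their group means correlated at -0.009 to 0.233 on day 3 and 0.046 to 0.126 on day 6, the times compared, where not every pair was above 0.1, so the numbers were not taken as pairs; at 8 h and on days 1 and 2 every pair was, at 0.199 to 0.318, 0.11 to 0.358 and 0.151 to 0.169. With the block the plasma cell list had 5 members with a higher change. Genes above the median level alone gave 5 shrinking lower and 49 reversed from lower, and centred array medians 3 reversed from higher. The ACTB covariate, chosen after the data were seen, gave 1 shrinking lower, and 3 and 17 reversed from higher and from lower. Leaving out single arrays gave 1 to 3 shrinking lower, 2 to 15 reversed from higher, 18 to 38 reversed from lower and 43 to 80 transient lower genes, and 2258 to 3118 genes with a higher and 1812 to 2279 with a lower change. Of single genes, RAG1 had a change of -0.00 and PECAM1 of -0.66 with the probe set brightest in the untreated arrays, and SUZ12 of 0.01 with the mean of probe sets. Probe sets near the array medians limit what can be said of dim genes.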

Other observations

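Lists of stress and organelle genes were also described, where 14.2% of all genes had a higher and 10.7% a lower change of effect. Of 31 lysosome genes 14 had a higher and 3 a lower change of effect (1 lower without day 6 EED226 replicate 1), among them the saposin precursor PSAP, from 1.01 to 2.41, and the cholesterol carrier NPC2, from 1.18 to 2.45. The proteases and glycosidases CTSB and NEU1, chosen after their values were seen, went from 1.29 to 2.43 and from 0.63 to 2.07. Of 19 core and linker histone genes 9 were higher and 2 lower; H2AC6 read 6.55, 6.42 and 6.86 with EED226 on day 3 and 10.11, 10.12 and 9.89 on day 6, against 2.49 to 3.05 in DMSO at both times, and H2BC4 went from 1.23 to 3.55.

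The counts that follow stand against 10.7% lower and 14.2% higher over all genes. Of 15 heat shock chaperones 7 were lower and 0 higher, with HSP90AB1 from -0.22 to -0.94 and HSPE1 from -0.32 to -1.13. Of 14 oxidative stress genes 9 were lower and 0 higher, with the pentose phosphate enzymes TKT, from -0.41 to -1.57, and PGD, from -0.44 to -1.47. The unfolded protein response split, with 7 of 19 higher and 7 lower: the sensor ERN1, chosen after its values were seen, went from 1.36 to 2.95 and the chaperone cofactor DNAJB9 from 0.13 to 1.21, while MANF went from -0.47 to -1.36. Of 19 hypoxia targets 8 were higher (5 without day 6 DMSO replicate 3 or day 6 EED226 replicate 2) and 3 lower, with the prolyl hydroxylase P4HA2 from 3.67 to 5.94 and the oxidoreductase ERO1A from -0.57 to -1.29.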
